A study of Mus musculus with 4 samples.

Results

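The microRNAs (miRNAs) miR-146a and miR-146b were followed across macrophages of normal and leukaemic mice. Their 4 mature arms, mmu-miR-146a-5p, mmu-miR-146a-3p, mmu-miR-146b-5p and mmu-miR-146b-3p, were looked up by name in a count table of 847 miRNA rows. A row was found for 3 of the 4, and miR-146a-3p was not analysed here (the species prefix mmu is left out from here on). The macrophages were sorted from the bone marrow (BM) or the spleen of C57BL/6J mice aged 6 to 8 weeks. Normal mice gave the normal BM and normal spleen libraries. Mice transplanted with GFP+ MLL-AF9 acute myeloid leukaemia (AML) cells, without irradiation, gave the AML BM and AML spleen libraries at 18 days, and survival of such mice is given as 35 to 40 days. The MLL-AF9 oncogene joins the genes MLL and AF9 and drives AML, and the stated aim was to compare leukaemia-associated macrophages with macrophages at homeostasis. Each of the 4 groups is 1 library, so each statement compares libraries and no difference has a replicate check. Whether a library pools several animals, and which markers were used in the sort, is not given in the sources used here.

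A miRNA hairpin is cut into a 5p and a 3p strand, and the strand that is kept guides the silencing complex to mRNAs that pair with its seed, bases 2 to 8. Transcription of miR-146a is induced by NF-kB after Toll-like receptor or cytokine signals, and the miRNA represses the adaptor TRAF6 and the kinase IRAK1, which act upstream of NF-kB. This negative feedback restrains macrophage activation, and mice without miR-146a develop myeloid expansion and inflammation. The paralogue miR-146b comes from another locus and shares the seed of its 5p arm.

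The mature sequences show why the 5p arms, with a common seed, are treated as a pair. They are printed 5′ to 3′ from RefSeq on build GRCm38.p6, with the seed in capitals.
miR-146a-5p: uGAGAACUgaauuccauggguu
miR-146b-5p: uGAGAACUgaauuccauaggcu
miR-146a-3p: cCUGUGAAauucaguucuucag
miR-146b-3p: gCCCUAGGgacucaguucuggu
The 5p arms are both 22 bases long and identical at 20 positions. They differ by G18A and U21C, with positions counted from 1 at the 5′ end, the base of miR-146a first and that of miR-146b last. The first 17 bases are the same, so a read cut short before position 18 cannot be told apart between the paralogues. Of the mature mouse miRNAs in the sequence table, only these 2 carry the seed GAGAACU. The 3p arms share neither a seed with each other nor one with any other mature miRNA in that table, and base by base they are identical at 4 of 22 positions. Shifted by 1 base they are identical at 12 of 21, with a shared run of 8 bases at positions 11 to 18 of miR-146a-3p and 12 to 19 of miR-146b-3p, outside the seeds.

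The hairpins are printed next with their mature arms in capitals, to show where the arms lie.
Mir146: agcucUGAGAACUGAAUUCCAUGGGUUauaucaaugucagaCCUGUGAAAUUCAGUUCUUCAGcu
Mir146b: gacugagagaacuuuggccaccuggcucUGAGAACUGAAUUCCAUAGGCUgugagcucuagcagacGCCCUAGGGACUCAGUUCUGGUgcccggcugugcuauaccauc
The hairpin of miR-146a, gene Mir146, spans 65 bases on the minus strand at chr11:43374397-43374461. In GENCODE M21 it lies within no other annotated gene, and the nearest is the lincRNA Gm12148, 11021 bases away on the opposite strand. The hairpin of miR-146b, gene Mir146b, spans 109 bases on the plus strand at chr19:46342762-46342870. It lies in an intron of the protein-coding gene Mfsd13a on the same strand, and Nfkb2, which encodes an NF-kB subunit precursor, ends 30377 bases away.

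The shared seed pairs with the letters AGTTCTC, read on the mRNA strand. A stretch around such a match is printed for each of the known targets Traf6 and Irak1, with the match in capitals, from GENCODE M21 transcripts.
Traf6: accgctctggtgttgAGTTCTCatttagt
Irak1: agactcagaggtcaaAGTTCTCatgcttg
The 3′ untranslated region (UTR) of the Traf6 transcript used held 4 such matches and that of Irak1 held 2. The same letters stood in 10.1% of the 3′ UTRs of 20968 coding genes, 1 transcript a gene. A match is a description of letters, and no mRNA was measured in these libraries.

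The libraries held 180227 to 435492 counted reads and 505 to 680 detected rows. Levels are given as counts per 1000000 reads (CPM) of a library scaled with TMM factors, and intervals in brackets are 95% exact intervals that cover counting error only. The myeloid marker miR-223-3p was thinly covered, with 10 counts in normal BM, 12 in AML BM, 28 in normal spleen and 4 in AML spleen. Markers of other cells were present in every library. The 7 lymphocyte markers summed to 19067 to 109714 CPM, the 3 erythroid markers to 548 to 5382 CPM, and the 7 stromal and endothelial markers to 3622 to 31846 CPM. A lower share of cells of a type and less RNA per cell cannot be told apart in such libraries.

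The miR-146a-5p level was high in normal spleen macrophages and low in both marrow libraries. It had 437 counts in normal BM, 648 in AML BM, 6753 in normal spleen and 807 in AML spleen. On the CPM scale these were 2107 [1914 to 2314], 2311 [2136 to 2496], 17223 [16815 to 17639] and 4183 [3899 to 4482]. Normal spleen thus stood far above the other libraries, AML spleen came next, and the marrow libraries lay together. By abundance miR-146a-5p ranked 62 in normal BM, 58 in AML BM, 19 in normal spleen and 41 in AML spleen. It took 1.55% of the counted reads of normal spleen and between 0.211% and 0.448% of those of the other libraries.

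The miR-146b-5p level followed another order, with AML BM highest and AML spleen lowest. Its counts were 195 in normal BM, 539 in AML BM, 347 in normal spleen and 104 in AML spleen. These were 940 [813 to 1082], 1922 [1763 to 2092], 885 [794 to 983] and 539 [440 to 653] CPM. The normal libraries of the 2 tissues lay within each other's intervals, and the leukaemic libraries lay on either side of them. The ranks were 83 in both normal libraries, 63 in AML BM and 106 in AML spleen.

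**Figure D1:**
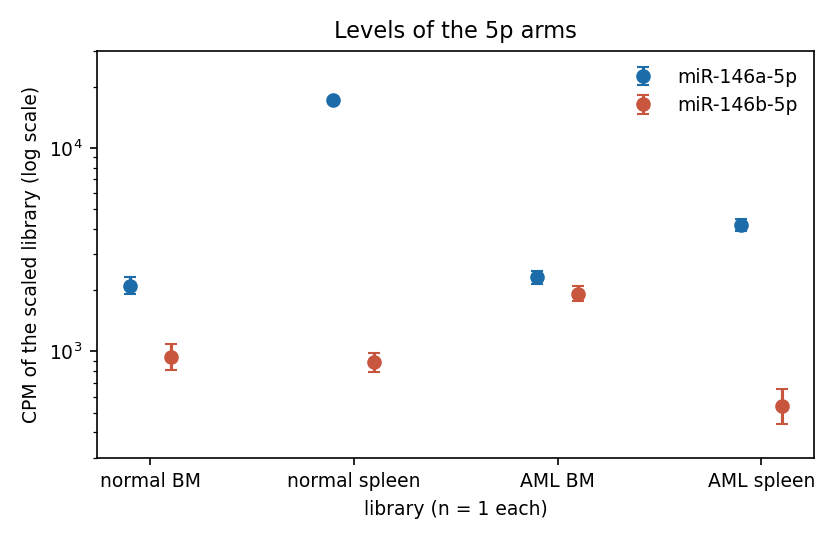
Levels of miR-146a-5p (blue) and miR-146b-5p (red) in CPM on a log axis, 1 library per group, with 95% exact Poisson intervals. The blue points peak at 17223 CPM in normal spleen, and the red points peak at 1922 CPM in AML BM.

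The passenger strand miR-146b-3p had 5 counts in AML BM, 7 in normal spleen and 0 in the other libraries. The counts of 0 allow up to 14.5 CPM in normal BM and 15.5 CPM in AML spleen, whereas the detected levels were 17.8 and 17.9 CPM. At this depth no difference between libraries was detectable for this arm. Of the reads of both miR-146b arms, the 3p arm took 1.98% [0.799% to 4.03%] in the normal spleen library and 0.919% [0.299% to 2.13%] in the AML BM library, so nearly all reads of the hairpin came from the 5p arm.

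In each comparison of libraries a miRNA was called different when the scaled counts differed at least 2-fold, the interval excluded equality and the larger count was at least 30. Of the 2 arms that could be compared, 1 was called in each of the 4 comparisons, miR-146b-5p between leukaemic and normal marrow and between the leukaemic tissues, and miR-146a-5p in the others. Over all miRNAs compared, the share called was 25.5% for AML BM against normal BM, 46.3% for AML spleen against normal spleen, 66.2% for normal spleen against normal BM and 35.1% for AML spleen against AML BM. With 2 arms, 1 called is not a count that can be set apart from these shares, and the normal spleen comparison called most miRNAs. Only comparisons of the same kind, AML against normal in the 2 tissues or spleen against BM in the 2 states, have no library in common, and all others share 1.

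In the marrow, miR-146b-5p was higher in AML and miR-146a-5p was not called. For miR-146b-5p the AML BM library stood 2.04-fold above normal BM, a log2 ratio of 1.03 [0.79 to 1.28], just past the 2-fold limit. Of the 216 miRNAs compared, 189 had a lower log2 ratio and 26 a higher one. For miR-146a-5p the log2 ratio was 0.13 [-0.04 to 0.31], close to the median of 0.00 over the compared miRNAs. Counting error alone covers that difference, and the interval also leaves room for a ratio up to 0.31.

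In the spleen, miR-146a-5p was lower in AML and miR-146b-5p leaned the same way without reaching 2-fold. The AML spleen library had 4.12-fold less miR-146a-5p than normal spleen, a log2 ratio of -2.04 [-2.15 to -1.94]. Only 8 of the 216 miRNAs compared had a lower ratio, and their median was -0.25. For miR-146b-5p the log2 ratio was -0.72 [-1.05 to -0.40], with 71 miRNAs lower and 144 higher. Its 104 counts in AML spleen were the fewest of either 5p arm in any library, which gives it the widest relative interval.

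Between tissues the paralogues also parted. Normal spleen had 8.17-fold more miR-146a-5p than normal BM, a log2 ratio of 3.03 [2.89 to 3.17], with 17 of 234 miRNAs higher. For miR-146b-5p the same ratio was -0.09 [-0.34 to 0.17], and its sign turned to 0.15 with DESeq2 size factors, so no direction is given. Among the leukaemic libraries, the spleen had 3.57-fold less miR-146b-5p than the marrow, a log2 ratio of -1.83 [-2.15 to -1.53], with 18 of 211 miRNAs lower. The miR-146a-5p ratio there was 0.86 [0.70 to 1.01], above equality and short of 2-fold.

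**Figure D2:**
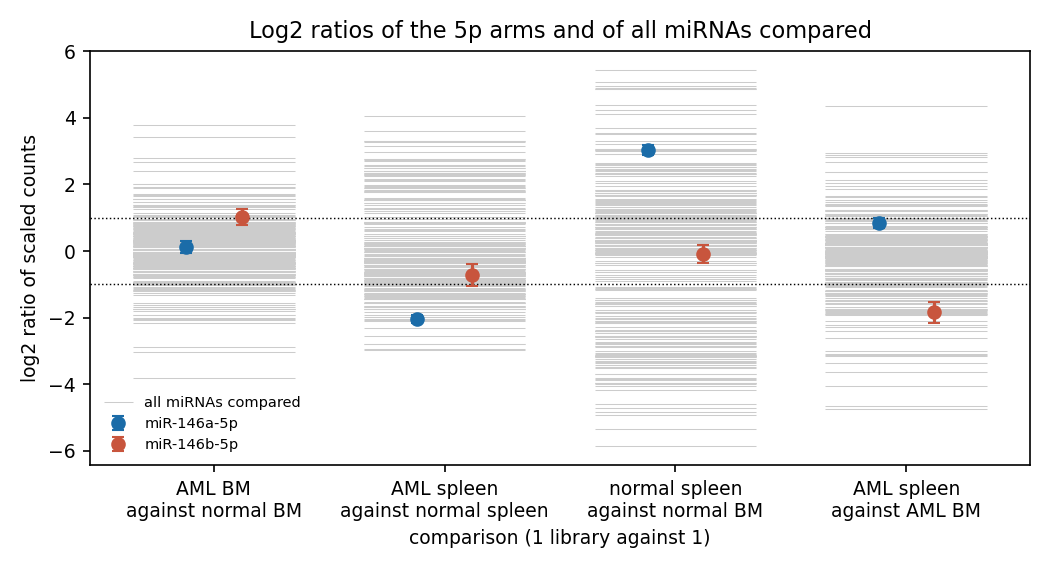
Log2 ratios of scaled counts in 4 comparisons of 1 library against 1, for miR-146a-5p (blue) and miR-146b-5p (red) with 95% exact intervals, over grey lines for all miRNAs compared. Dotted lines mark 2-fold, and in each comparison 1 of the coloured points lies past them.

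Ordering the levels over all 6 pairs of libraries gave normal spleen, AML spleen, AML BM and normal BM for miR-146a-5p. Only AML BM and normal BM in that order were not separated beyond counting error. AML spleen stood 1.98-fold above normal BM, just under the 2-fold limit. For miR-146b-5p the order was AML BM, normal BM, normal spleen and AML spleen, with the normal libraries not separated. AML BM stood 2.17-fold above normal spleen for this arm, whereas for miR-146a-5p it stood 7.45-fold below it.

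The balance between the paralogues needs no scaling between libraries, since both counts come from the same library. The share of miR-146b-5p among reads of both 5p arms was 30.9% [27.3% to 34.6%] in normal BM and 4.89% [4.40% to 5.41%] in normal spleen. In the leukaemic mice it was 45.4% [42.5% to 48.3%] for BM and 11.4% [9.42% to 13.7%] for spleen. None of these 4 intervals overlapped, the marrow shares lay above the spleen shares, and in each tissue the AML share lay above the normal share. The ratio of miR-146b-5p to miR-146a-5p was 1.86-fold higher in AML BM than in normal BM and 2.51-fold higher in AML spleen than in normal spleen. In the marrow this went with more miR-146b-5p, and in the spleen with less miR-146a-5p.

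**Figure D3:**
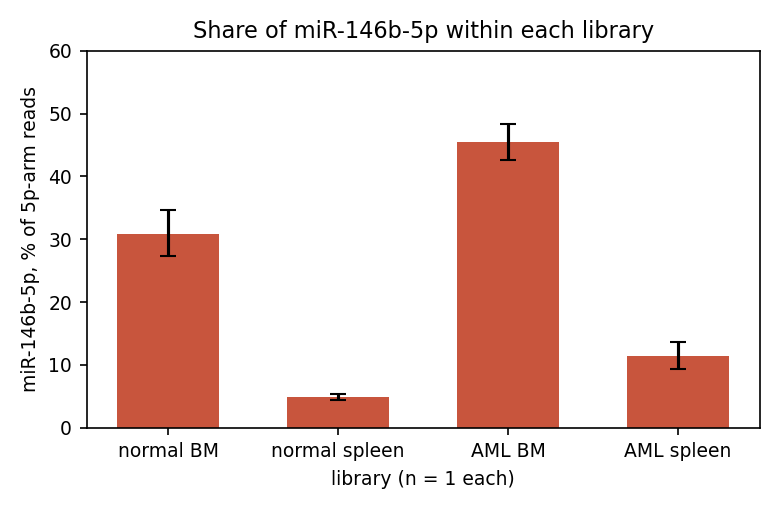
Share of miR-146b-5p among reads of both miR-146 5p arms in percent, 1 library per group, with 95% exact (Clopper-Pearson) intervals. The bars stand at 30.9% and 45.4% in the marrow and at 4.89% and 11.4% in the spleen.

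The near identity of the 5p arms limits how these shares can be read, because the rule by which reads were assigned is not given in the sources used here. In normal spleen miR-146b-5p had 5.14% of the counts of miR-146a-5p, which is the largest fixed share of miR-146a-5p reads that could have been counted as miR-146b-5p. With that share taken off, a setting added with the values known, miR-146b-5p kept 173 counts in normal BM, 63 in AML spleen and 506 in AML BM. The AML BM against normal BM log2 ratio was then 1.11, and the AML spleen against AML BM ratio -2.47. The miR-146b-5p level of normal spleen itself may be as low as 0 by this reckoning, and the direction of its AML ratio in the spleen is then not known. Reads counted in the other direction, from miR-146b-5p to miR-146a-5p, would raise it above the 885 CPM counted, and their number is not known either.

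Summed over both 5p arms, which share a seed, the level was 3048 CPM in normal BM, 4233 in AML BM, 18108 in normal spleen and 4722 in AML spleen. The sum was lower in AML spleen than in normal spleen by a log2 ratio of -1.94 [-2.04 to -1.84] and called. It was 0.47 [0.33 to 0.62] above normal BM in AML BM and not called. Between the leukaemic tissues the sums differed by a log2 ratio of 0.16 [0.03 to 0.28], while miR-146b-5p made up 45.4% of the sum in the marrow and 11.4% in the spleen.

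The AML ratio of the spleen lay below that of the BM for both 5p arms. The gap, the log2 ratio of the spleen minus that of the BM, was -2.17 [-2.38 to -1.97] for miR-146a-5p and -1.75 [-2.14 to -1.35] for miR-146b-5p, with intervals from Poisson errors. Over the 186 miRNAs compared in both tissues the median gap was -0.38, and 23 had a lower gap than miR-146a-5p and 35 a lower gap than miR-146b-5p. In the marrow miR-146b-5p stood apart from normal, in the spleen miR-146a-5p did.

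An additive model of tissue and leukaemia over 246 miRNAs, fitted with edgeR's quasi-likelihood test, has 1 residual degree of freedom and takes any tissue-specific AML effect as noise. Its AML effect was -0.96 on the log2 scale for miR-146a-5p and 0.16 for miR-146b-5p, each with a Benjamini-Hochberg adjusted p of 0.998. The spleen effect was 1.94 (adjusted p = 0.758) for miR-146a-5p and -0.96 (adjusted p = 0.761) for miR-146b-5p. The model called 0 miRNAs for either effect, with 0 and 15 at an unadjusted p under 0.05, limma-trend called 0 for either, and DESeq2 called 0 for AML and 12 for spleen, neither 5p arm among them.

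Other miRNAs of the same signalling were taken from a fixed list of 14 that Toll-like receptor or NF-kB signals induce, of which 13 had a row and 4 reached 30 counts. In AML BM against normal BM, 1 of the 4 was higher and 1 lower, with a median log2 ratio of -0.55 against 0.00 over all miRNAs, of which 25.5% were called. In AML spleen against normal spleen, 3 were higher and 1 lower, with a median of 1.41 against -0.25 over all miRNAs (46.3% called). In normal spleen against normal BM, 1 was higher and 3 lower, with a median of -1.83 against 0.19 (66.2% called). Between the leukaemic tissues 1 was higher in the spleen and none lower, with a median of 0.53 against -0.12 (35.1% called). With 4 members, none of these counts is set apart from the shares over all miRNAs. Of the 4, miR-155-5p alone moved with miR-146a-5p in the spleen comparison, at -2.09, whereas miR-21a-5p (1.44), miR-9-5p (2.57) and let-7e-5p (1.38) went the other way.

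A second fixed list held 9 miRNAs known to act on genes of the pathway, and 7 of them were compared. In AML BM against normal BM, 2 were higher, miR-223-5p (1.39) and miR-181b-5p (1.02), and 1 was lower, miR-199a-5p (-1.15), 3 of 7 called where 25.5% of all miRNAs were. The list median was 0.20. All 3 called are also among the cell type markers used below, as is miR-9-5p of the first list, so these rows are read in both places. In AML spleen against normal spleen, miR-199a-5p was higher (1.83) and miR-181b-5p lower (-1.40), and the median of -0.21 turned to 0.04 on total counts (46.3% of all called). In normal spleen against normal BM, 1 was higher and 4 lower, with a median of -1.14 (66.2% of all called). On total counts 0 were higher there and 5 lower, and with DESeq2 size factors 1 was higher and 3 lower. Between the leukaemic tissues 4 were lower in the spleen and none higher, with a median of -1.001 (35.1% of all called). That median was let-7i-5p, just past 2-fold, and on total counts 3 were lower, with a median of -0.95. The miRNA of the miR-181b-5p row targets an importin that carries NF-kB into the nucleus. The row was higher in AML BM than in normal BM and lower in AML spleen than in normal spleen.

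Set against miR-155-5p, which NF-kB induces and which promotes inflammatory responses, miR-146a-5p had a like balance in 3 of the libraries. It had 6.48 [5.24 to 8.08] reads per read of miR-155-5p in AML BM, 8.20 [7.62 to 8.82] in normal spleen and 8.49 [6.86 to 10.6] in AML spleen. In normal BM the ratio was 31.2 [18.4 to 57.6], from only 14 counts of miR-155-5p. For miR-146b-5p the ratio ran from 0.421 [0.370 to 0.478] in normal spleen through 1.09 [0.821 to 1.46] in AML spleen and 5.39 [4.35 to 6.74] in AML BM to 13.9 [8.10 to 26.0] in normal BM. The miR-155-5p level itself was 67.5 CPM in normal BM, 357 in AML BM, 2102 in normal spleen and 492 in AML spleen.

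**Figure D4:**
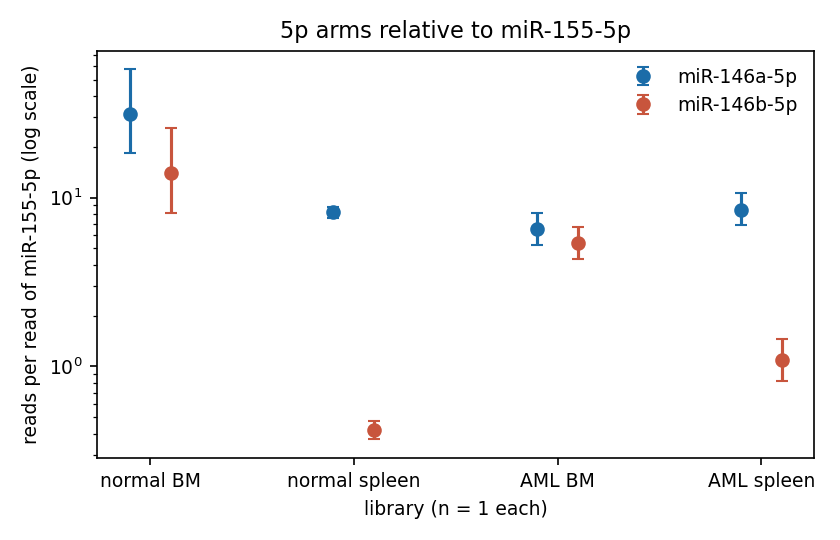
Reads of miR-146a-5p (blue) and miR-146b-5p (red) per read of miR-155-5p on a log axis, 1 library per group, with 95% exact intervals. The blue points lie between 6.48 and 8.49 except in normal BM (31.2), and the red points span 0.421 to 13.9.

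The miRNAs whose pattern was most like each arm were found among 137 rows with at least 30 counts in every library, by the root mean square difference of log2 CPM centred over the 4 libraries. For miR-146a-5p the nearest was miR-142a-5p, of a haematopoietic hairpin, at 0.39. It was followed by miR-15b-5p (0.48), miR-484 (0.51), miR-191-5p (0.55) and miR-501-3p (0.58), against a median of 1.25 over the rows. For miR-146b-5p the nearest were miR-1981-5p (0.24), miR-25-5p (0.26), miR-330-5p (0.31), miR-128-3p (0.31) and miR-30e-3p (0.31), against a median of 0.91. The arms lay 1.56 from each other, and 86 of the 137 rows were closer to miR-146a-5p than its paralogue was. For miR-146b-5p, 131 rows were closer than miR-146a-5p. These distances rest on 4 libraries and describe them only.

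**Figure D5:**
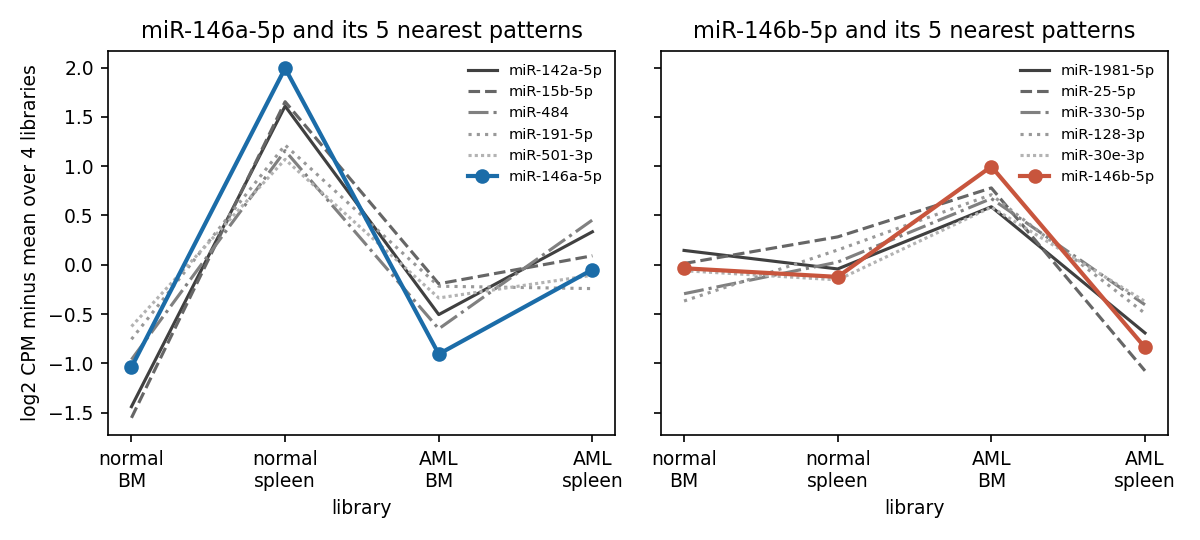
Log2 CPM minus its mean over the 4 libraries for miR-146a-5p (left, blue) and miR-146b-5p (right, red), each with its 5 nearest rows in grey. The left set is highest in normal spleen and lowest in normal BM, and the right set is highest in AML BM and lowest in AML spleen, with lines drawn only to join points of a row.

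Most lymphocyte markers had the direction of miR-146a-5p in the comparisons in which it was called. Both of those comparisons use the normal spleen library, so they are not independent of each other. Lymphocytes also express miR-146a, and the 7 lymphocyte markers, all detected in every library, summed to 19067 CPM in normal BM, 45089 in AML BM, 109714 in normal spleen and 50218 in AML spleen. Most of each sum was miR-181a-5p, at 13150 CPM in normal BM, 36519 in AML BM, 73049 in normal spleen and 33057 in AML spleen. In normal spleen against normal BM 5 of the 7 were higher and none lower, and in AML spleen against normal spleen 5 were lower and none higher, each 4 on total counts. In the latter comparison miR-150-3p (0.40) and miR-342-5p (0.46) leaned the other way without a call. Over all miRNAs 66.2% and 46.3% were called in these comparisons in either direction, so 5 of 7 called was near the first share. In AML BM against normal BM 2 were higher (25.5% of all called), while miR-146a-5p stood at 0.13. Between the leukaemic tissues 3 were higher in the spleen and 2 lower, miR-181b-5p (-1.27) and miR-181d-5p (-3.14), where 35.1% of all miRNAs were called. There miR-146a-5p stood at 0.86. The lymphocyte marker miR-150-5p was at 743 CPM in normal BM, 1352 in AML BM, 25275 in normal spleen and 8687 in AML spleen. Per read of miR-150-5p there were 2.84 [2.36 to 3.43] reads of miR-146a-5p in normal BM, 1.71 [1.504 to 1.95] in AML BM, 0.681 [0.661 to 0.703] in normal spleen and 0.482 [0.442 to 0.524] in AML spleen. The 4 myeloid markers summed to 723, 1797, 7179 and 2488 CPM in the same order. That sum was carried by both arms of miR-142a, which other blood cells also express. The myeloid miR-223-5p had another order, with 203 CPM in normal BM, 531 in AML BM, 91.8 in normal spleen and 51.8 in AML spleen.

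Stromal and endothelial markers went against miR-146a-5p in the same comparisons, which share the normal spleen library. In AML spleen against normal spleen 6 of 6 compared were higher, with a median log2 ratio of 2.67 (46.3% of all miRNAs called). Of the 3 erythroid markers 1 could be compared, miR-451a, which was higher by 1.96. Below the count minimum, miR-144-3p went lower, from 25 counts in normal spleen (63.8 CPM) to 2 in AML spleen (10.4 CPM). In normal spleen against normal BM 7 of 7 stromal and endothelial markers were lower, with a median of -3.15 (66.2% of all miRNAs called). The miR-451a ratio stood at -3.43. Of the 3 leukaemic blast markers, miR-196b-5p, miR-10a-5p and miR-9-5p, 2 were higher and 1 lower in AML spleen against normal spleen, and all 3 were lower in normal spleen against normal BM. With 3 members these counts are not set apart from the shares over all miRNAs. In AML BM against normal BM, where miR-146b-5p was called, 1 blast marker, miR-9-5p, was lower (-1.19). The blast markers miR-196b-5p (0.86) and miR-10a-5p (-0.46) leaned in opposite directions there without a call. In that comparison 1 of 7 stromal and endothelial markers was lower, where 25.5% of all miRNAs were called. Of the 2 erythroid markers compared in it, miR-451a was lower (-2.15) and miR-144-3p was not called (-0.02). Between the leukaemic tissues, where miR-146b-5p was called too, 0 of 7 stromal and endothelial markers were called (35.1% of all miRNAs called). Of the blast markers miR-196b-5p was lower in the spleen (-4.75) and miR-9-5p higher (1.20). Of the 2 erythroid markers compared there, miR-144-3p was lower in the spleen (-3.63) and miR-451a was not called (0.68). The part of lymphocytes or other cells in the miR-146 levels was not tested.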

How the data were processed

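Small RNA of sorted macrophages was sequenced with an Illumina HiSeq machine, per the labels' protocols. No aligner, counting rule, genome build or miRNA annotation is given in the sources used here. The authors deposited raw read counts per miRNA for 4 libraries and TPM values, named so per the file headers, which equalled counts per 1000000 counted reads with no length term and were not analysed further. Groups came from the titles and columns from the library codes in the descriptions.

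Counts were scaled with TMM factors (1.00 in normal BM, 1.03 in AML BM, 0.900 in normal spleen and 1.07 in AML spleen) from edgeR 4.0.16 in R 4.3.3. Ratios and shares have 95% exact conditional or Clopper-Pearson intervals (scipy 1.17.1). A count of 0 stands for up to 3 counts. Reads carry no molecular identifiers here, so intervals cover counting error only. The additive model used edgeR, with DESeq2 1.42.0 and limma 3.58.1 (prior count 2) as alternatives. Interval and model scripts were tested on simulated data. Sequences came from RefSeq (GRCm38.p6) by miRNA name and matched all 4 arms. Of the table's rows, 7 repeated the counts of another within 3% or 2 counts, none of them a miR-146 row. Named genes were the arms, members of lists with at least 30 counts in some library, and the 5 nearest rows of each 5p arm. The members and lists were chosen with earlier results of these data known.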

Additional observations from a re-analysis of the deposited data

Results flagged for a closer look

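The AML ratio of miR-146a-5p had opposite signs in the tissues, 0.13 in BM and -2.04 in spleen, a gap of -2.17 on the log2 scale, although the BM interval [-0.04 to 0.31] includes equality. That of miR-146b-5p was 1.03 in BM and -0.72 in spleen, a gap of -1.75, and both intervals excluded equality. The spleen value and the gap assume that reads of the 5p arms were assigned correctly. With the largest possible share of miR-146a-5p reads taken off, miR-146b-5p kept 63 counts in AML spleen and 0 in normal spleen. That share is set from the normal spleen counts, so the 0 is fixed in advance, and the spleen direction is then not known. With 1 library per group, neither difference was tested across replicates.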

How the results depend on the processing

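Over 18 values for the 5p arms, their sum, their gap and the additive model, 83 of 84 alternative values kept the direction and the side of the threshold. The exception was miR-146b-5p in normal spleen against normal BM, at -0.09 with TMM and 0.15 [-0.11 to 0.41] with DESeq2 size factors, which by their construction shift every ratio of that pair by 0.24. Among the 84, values with a minimum of 1 or 100 counts could not differ. The minimum leaves a ratio unchanged, and the larger count of each 5p pair exceeded 100. For the gap, only the side of equality on which its interval lay was scored. In AML spleen against normal spleen, DESeq2 size factors shifted every log2 ratio by -0.24, total counts by 0.25 and totals without the 10 most abundant miRNAs of each library by 0.12. Under the settings tried miR-146a-5p there ranged from -2.28 to -1.79, and miR-146b-5p in AML BM against normal BM from 1.03 to 1.15. Adjusted p-values of the additive model ranged from 0.240 to 0.988 for the spleen effect on miR-146a-5p. The number of miRNAs called depended on the count minimum: with 30, 1 and 100 counts it was 55, 93 and 24 for AML BM against normal BM, 100, 158 and 64 for AML spleen against normal spleen, and 74, 116 and 37 for AML spleen against AML BM. For normal spleen against normal BM it was 155, 222 and 96. Leaving repeated rows out before scaling, and taking off the largest share of miR-146a-5p reads, were chosen after seeing the data, and the latter gives no value against normal spleen, where it leaves 0 counts. The arm miR-146b-3p gave no ratio at a minimum of 30 or 100 counts and was not called at 1. No paired analysis was possible because each group is 1 library with no replicate number, and no library could be left out of a comparison of 1 against 1.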

Other observations

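Per read of miR-142a-5p, the row nearest to it in pattern, miR-146a-5p had 6.52 [5.03 to 8.57] reads in normal BM and 6.45 [6.04 to 6.89] in normal spleen. In AML BM and AML spleen the values were 3.75 [3.16 to 4.46] and 3.79 [3.25 to 4.43]. The intervals overlapped between tissues of the same state and not between states. Per read of the lymphocyte marker miR-342-3p, miR-146a-5p had 13.7 [9.53 to 20.2] reads in normal BM, 8.60 [7.99 to 9.27] in normal spleen, 19.1 [13.5 to 27.8] in AML BM and 6.67 [5.50 to 8.14] in AML spleen. These ratios need no scaling between libraries, and the partners were chosen with their values known.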
